A study of Rattus norvegicus with 8 samples.

Results

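The 10 genes examined here belong to the T cell receptor complex, its coreceptors and early T cell signaling, and were measured in rat carotid arteries 2 weeks after intimal injury. They were found by symbol in the deposited count table, and all 10 were matched among its 37209 genes. The libraries came from male Sprague-Dawley rats that weighed 400 g on average and whose age is not given. In the 4 injured arteries, the left carotid artery had been injured with a balloon dilatation catheter, which strips the endothelial lining. The 4 controls were undamaged right carotid arteries, harvested at the same time from operated animals and used as self-controls. Both groups thus came from animals that had undergone surgery and anesthesia. Only the left artery is described as exposed, and no sham operation is described, so that injury and handling of the artery cannot be told apart. The labels do not say which injured and control arteries shared an animal. The tests therefore treated the arteries as unpaired unless a replicate block is named, and p-values measure the spread between these libraries. All injured arteries were left and all controls right, so that injury and side cannot be told apart. Each library was made from artery tissue that was not sorted into cell types.

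T lymphocytes recognize antigen with a receptor that has no signaling tail of its own. The receptor is assembled with the CD3 gamma, delta and epsilon chains and the zeta chain encoded by Cd247, whose cytoplasmic motifs are phosphorylated by the kinase Lck and then bind the kinase ZAP-70. CD4 and CD8 are coreceptors that bind class II and class I molecules of the major histocompatibility complex and carry Lck to the receptor. CD2 is an adhesion molecule, CTLA-4 is an inhibitory receptor that competes with CD28, and Foxp3 is the transcription factor of regulatory T cells. In the rat, CD4 is also carried by monocytes and macrophages, and CD2, the CD8 alpha chain and the zeta chain are also carried by natural killer cells, whereas the CD3 gamma, delta and epsilon chains are the more restricted marks of T cells. T cells are known to enter the adventitia and the neointima of injured arteries.

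The total count was 13470754 to 15276952 in the control arteries and 11459632 to 16658089 in the injured arteries, and 3 counts, taken as the floor, stood for 0.180 to 0.262 counts per 1000000 of that total. The floor covers counting error only. All CPM values below are counts per 1000000 of the library size after scaling by edgeR's TMM factors. The text on RNA extraction names prefrontal cortex, whereas all other labels name the carotid artery. Smooth muscle markers summed to 17283 to 50154 CPM in the control arteries and 10398 to 16382 CPM in the injured arteries, led by Acta2 and Myh11. Control artery 4 stood apart from the other controls, with a correlation of log2 CPM across genes of 0.830 to 0.852 against 0.976 to 0.978 among the others, and it had 8135 CPM of sympathetic neuron markers where the other controls had at most 4.16 CPM. Injured artery 3 had 1746 CPM of the same markers. Dbh led them in control artery 4 with 48101 counts, and Stmn2 in injured artery 3 with 13138. Npy, on the same list, had 0 and 1 counts in these 2 libraries. Foxp3, Cd40lg and Il2rg are on chromosome X, and 592 of 606 protein-coding genes matched to that chromosome (97.7%) were at 0 in all 8 libraries, against 9.62% on the autosomes. The X-linked genes Hprt1, Pgk1 and Msn, which most cells use, were among them. A 0 for an X-linked gene is therefore only a listed value in this table.

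The genes of the CD3 chains are shown by the 250 bases before their annotated starts because these 4 chains form the signaling unit of the receptor and their counts are summed below. The windows are from RefSeq on the GRCr8 build, on the strand of the gene, and a window was matched for 9 of the 10 genes. Cd4 had none in the table. Capitals mark AGGAAG or its reverse complement CTTCCT, a core that many ETS family transcription factors bind. The counts carry no genome build, so the windows serve as a description of the genes and not of the reads.
Cd3g, chr8:54183919-54184168, minus strand: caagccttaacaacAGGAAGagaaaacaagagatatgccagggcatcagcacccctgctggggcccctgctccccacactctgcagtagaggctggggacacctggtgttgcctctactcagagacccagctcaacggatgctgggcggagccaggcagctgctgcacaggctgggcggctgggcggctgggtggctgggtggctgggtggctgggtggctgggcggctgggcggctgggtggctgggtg
Cd3d, chr8:54185269-54185518, plus strand: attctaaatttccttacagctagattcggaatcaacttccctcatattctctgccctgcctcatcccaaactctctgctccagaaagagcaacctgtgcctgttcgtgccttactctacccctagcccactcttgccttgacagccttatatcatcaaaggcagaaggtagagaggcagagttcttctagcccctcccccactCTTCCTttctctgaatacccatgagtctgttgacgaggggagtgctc
Cd3e, chr8:54211771-54212020, minus strand: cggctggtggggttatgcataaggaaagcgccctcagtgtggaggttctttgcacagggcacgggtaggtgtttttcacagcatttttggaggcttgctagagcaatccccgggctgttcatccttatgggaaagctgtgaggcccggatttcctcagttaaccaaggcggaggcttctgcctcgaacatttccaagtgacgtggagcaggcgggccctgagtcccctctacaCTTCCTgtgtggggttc
Cd247, chr13:80576019-80576268, plus strand: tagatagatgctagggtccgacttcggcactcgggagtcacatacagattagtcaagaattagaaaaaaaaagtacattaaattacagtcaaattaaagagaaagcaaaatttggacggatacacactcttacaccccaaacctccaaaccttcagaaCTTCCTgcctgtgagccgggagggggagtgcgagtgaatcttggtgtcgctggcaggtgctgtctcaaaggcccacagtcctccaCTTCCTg
The capitals began 236 bases before the start in Cd3g, 47 in Cd3d, 17 in Cd3e, and 92 and 7 in Cd247. AGGAAG in either direction was held by 29.5% of 33469 RefSeq windows of this length, and by those of 6 of the 9 genes, namely the 4 above, Lck and Ctla4. The E-box CANNTG was held by 65.5% of all windows and by 6 of the 9 genes. TATAAA was held by 12.9% and by 2 of the 9 genes. A match is not a site of binding, and none of these shares was tested.

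Of the 10 genes, 8 had enough counts for edgeR's quasi-likelihood test, and Cd4 and Cd2 were called higher after injury at a false discovery rate (FDR) under 0.05 with a fold change above 2. None was called lower. Across all 14359 genes tested, 8.31% were called higher. The log2 fold change was positive in all 8, from 1.44 to 3.03 with a median of 1.70, beside a median of -0.06 over all tested genes, of which 45.2% were positive. In 5 of the 8 genes, every injured artery was above every control artery, against 14.2% of all tested genes. Cd2 had no control artery above the count cutoff of that test and so entered it through the injured arteries alone. Its place among the 5 genes without overlap was therefore fixed by the filter. In bulk tissue, a difference in the number of T cells and a difference in RNA per cell cannot be told apart.

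**Figure D1:**
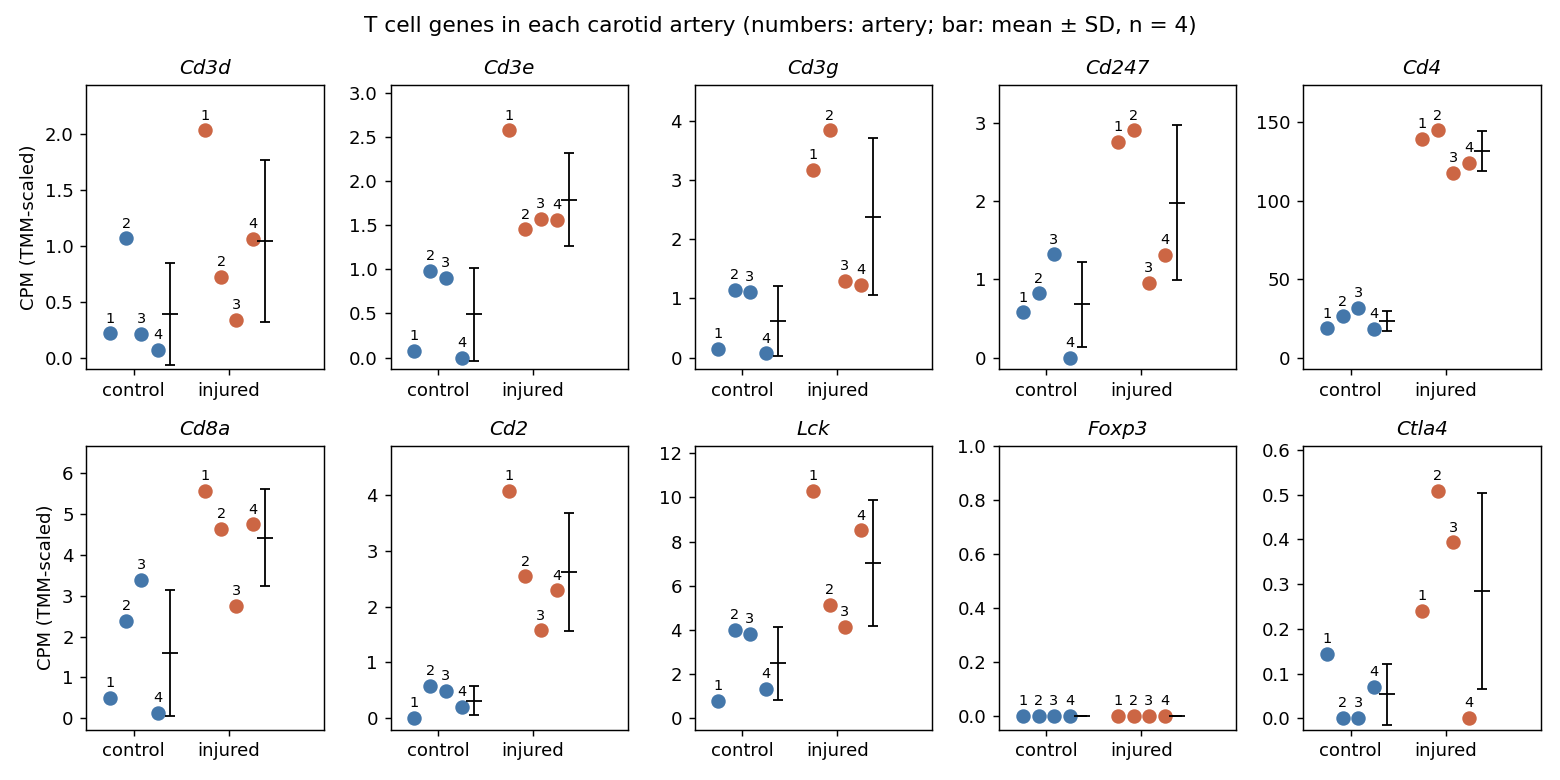
Level of each of the 10 genes in every artery, in CPM scaled by edgeR's TMM factors (each panel has its own axis, from 0), with control arteries in blue and injured arteries in orange, artery numbers beside the points, and the mean ± SD (n = 4) as a bar. Cd4 and Cd2 are separated between the groups in all arteries, the CD3 chains partly so, and Foxp3 lies at 0 in all 8.

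The CD3 chains were low in the controls. Cd3g, the gamma chain, had 2, 14, 16 and 1 counts in control arteries 1 to 4 and 53, 53, 23 and 15 in injured arteries 1 to 4. The lowest injured artery was above the highest control artery, narrowly, and control arteries 1 and 4 were at or under the floor. Its mean was 0.618 ± 0.591 CPM (SD, n = 4) in the controls and 2.38 ± 1.33 CPM (SD, n = 4) after injury, a log2 fold change of 1.95 (standard error, SE, 0.80) that was not called (edgeR FDR 0.141). Cd3e, the epsilon chain, had 1, 12, 13 and 0 counts in the controls and 43, 20, 28 and 19 after injury. Again no artery overlapped, and injured artery 1 was well above the other 3. The mean moved from 0.489 ± 0.525 to 1.79 ± 0.526 CPM (SD, n = 4 each), a log2 fold change of 1.87 (SE 0.86), which edgeR did not call (FDR 0.182).

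Cd3d, the delta chain, overlapped between the groups. It had 3, 13, 3 and 1 counts in the controls and 34, 10, 6 and 13 after injury, so that control artery 2 equaled injured artery 4 in counts and was above injured arteries 2 and 3. The log2 fold change was 1.44 (SE 0.82) from 0.390 ± 0.456 to 1.04 ± 0.726 CPM (SD, n = 4 each), and edgeR gave an FDR of 0.280. Cd247, the zeta chain, had 8, 10, 19 and 0 counts in the controls and 46, 40, 17 and 16 after injury. Control artery 3 lay above injured artery 3 and beside injured artery 4. The mean went from 0.678 ± 0.547 to 1.98 ± 0.991 CPM (SD, n = 4 each), a log2 fold change of 1.54 (SE 0.81) and edgeR gave an FDR of 0.240.

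Summed over the 4 chains, the counts were 14, 49, 51 and 2 in the controls and 176, 123, 74 and 63 after injury. Control artery 4, the library with neuronal markers, had the lowest sum of all. The summed level was 2.18 ± 1.89 CPM (SD, n = 4) in the controls and 7.19 ± 3.03 CPM (SD, n = 4) after injury. The exact two-sided permutation test of log2 CPM over all 70 relabellings of the arteries gave 0.0286 for Cd3g and Cd3e, which is the smallest p that 4 against 4 allows, 0.0857 for Cd247 and 0.171 for Cd3d.

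Of the coreceptor genes in the set, Cd4 rose and Cd8a was not called. Cd4 had 258, 319, 453 and 259 counts in the controls and 2327, 1995, 2090 and 1515 after injury. The lowest injured artery, at 117 CPM, was far above the highest control, at 31.4 CPM. The mean rose from 23.5 ± 6.42 to 131 ± 12.8 CPM (SD, n = 4 each), a log2 fold change of 2.48 (SE 0.20, edgeR FDR 0.000325). Cd8a, the alpha chain of the other coreceptor, had 7, 29, 49 and 2 counts in the controls and 93, 64, 49 and 58 after injury. Control artery 3 was above injured artery 3. The log2 fold change of 1.46 (SE 0.77), from 1.60 ± 1.55 to 4.43 ± 1.19 CPM (SD, n = 4 each), was not called (edgeR FDR 0.242, exact permutation p = 0.0571). Cd8b, the beta chain, which is the more T cell restricted chain of CD8, had 0, 3, 8 and 0 counts in the controls and 28, 35, 19 and 22 after injury, and was called with a log2 fold change of 3.09 (SE 0.87, edgeR FDR 0.0454). Like Cd2, it entered the test through the injured arteries alone.

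The level of Cd4 was set beside those of the CD3 chains and of a macrophage gene in the same libraries. There were 18.4, 6.51, 8.88 and 129.5 Cd4 counts per count of the 4 CD3 chains in control arteries 1 to 4, and 13.2, 16.2, 28.2 and 24.0 in injured arteries 1 to 4. The groups overlapped, and the value of control artery 4 rests on 2 CD3 counts. Pooled over arteries, the ratio was 11.1 in the controls and 18.2 after injury. Cd4 counts per 100 counts of Csf1r, the receptor for macrophage colony stimulating factor, were 38.8, 45.2, 57.6 and 46.7 in the controls and 68.8, 60.4, 64.1 and 72.6 after injury, without overlap. The 11 macrophage markers, Lyz2 the highest among them, summed to 225 to 334 CPM in the controls and 1887 to 2794 CPM after injury. Of the 11, 10 were called higher, beside 8.31% of all tested genes. The part of macrophages in the Cd4 counts was not tested.

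**Figure D2:**
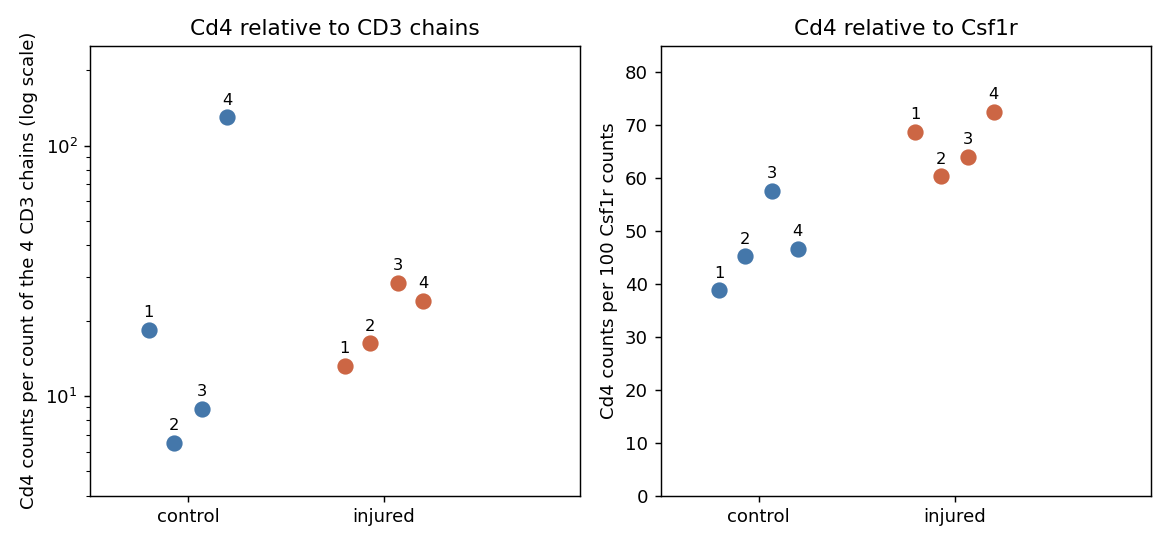
Cd4 counts per count of the summed CD3 chains (left, log axis) and per 100 Csf1r counts (right, linear axis) in each artery, numbered, with controls in blue and injured arteries in orange. The left ratio overlaps between the groups from 6.51 to 129.5 in the controls, and the right ratio is 38.8 to 57.6 in the controls and 60.4 to 72.6 after injury.

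Cd2, the adhesion molecule that binds CD48 in rodents, had 0, 7, 7 and 3 counts in the controls and 68, 35, 28 and 28 after injury. All injured arteries were above all controls, and injured artery 1 was the highest. The mean rose from 0.317 ± 0.262 to 2.62 ± 1.05 CPM (SD, n = 4 each), with a log2 fold change of 3.03 (SE 0.71, edgeR FDR 0.0230). The call was lost without control artery 3 (edgeR FDR 0.0524), without injured artery 1 (0.0660), without injured artery 2 (0.0632) and without injured artery 4 (0.0638). Lck, the kinase that phosphorylates the CD3 chains, had 11, 49, 55 and 19 counts in the controls and 172, 71, 74 and 104 after injury. The groups did not overlap, although the gap between control artery 2 at 4.02 CPM and injured artery 3 at 4.16 CPM was small. The mean went from 2.49 ± 1.67 to 7.03 ± 2.86 CPM (SD, n = 4 each), a log2 fold change of 1.50 (SE 0.56) that edgeR did not call (FDR 0.107). DESeq2 called Lck at an FDR of 0.0365. Exact permutation tests gave the smallest possible p of 0.0286 for Cd4, Cd2 and Lck, unadjusted. For Cd2 this value is no support, because a gene tested through the injured arteries alone could not overlap between the groups.

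Of the regulatory genes, Ctla4 had 2, 0, 0 and 1 counts in the controls and 4, 7, 7 and 0 after injury, too few for the edgeR test, and the groups overlapped (exact permutation p = 0.171). Foxp3 was listed at 0 in all 8 libraries, as were most genes of chromosome X. At this depth no difference was detectable in Ctla4.

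The arteries held a similar order across genes. Injured artery 1 was the highest injured artery in 5 of the 8 tested genes and first or second in all 8, and injured artery 3 was the lowest in 6. Among the controls, artery 2 was the highest in 5 genes and artery 3 in 3, and artery 4 was the lowest in 6. Without control artery 4, the log2 fold changes of the 4 CD3 chains were 1.08 to 1.57 and none was called by edgeR (lowest FDR 0.131), while Cd2 stayed called at 2.87 (edgeR FDR 0.0263) and Cd4 at 2.37 (FDR 0.000222).

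Signaling genes downstream of the receptor were read from a list of 20, of which 16 were matched and 10 tested by edgeR. Zap70, Lat, Lcp2 and Cd8b were called higher and none lower, beside 8.31% of all tested genes called higher. The median log2 fold change was 1.62 over the 10, which include Cd8b and Skap1, tested through the injured arteries alone. Zap70, the kinase bound by the phosphorylated CD3 chains, had 2, 8, 16 and 9 counts in the controls and 81, 57, 38 and 34 after injury. All injured arteries were above all controls (log2 fold change 2.44, SE 0.53, edgeR FDR 0.0171). The adapter Lat had 18, 18, 39 and 12 counts against 64, 61, 56 and 66 (log2 fold change 1.40, edgeR FDR 0.0368), and the adapter Lcp2, also used by myeloid cells and platelets, had 165, 81, 101 and 58 against 365, 383, 341 and 291 (log2 fold change 1.65, edgeR FDR 0.0101). Of the genes that were not called, Cd6 had the largest log2 fold change at 2.55 (edgeR FDR 0.0713). Ubash3a, a negative regulator of receptor signaling, had the lowest at -1.12 (edgeR FDR 0.0776), with 29, 35, 27 and 28 counts in the controls and 23, 13, 22 and 5 after injury, and DESeq2 called it lower (FDR 0.0472). Without control artery 2, injured artery 1 or injured artery 2, 2 genes of the list were called higher by edgeR. Trac, Trbc1 and Trbc2 were not analysed here.

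Costimulatory and checkpoint receptors were matched in 14 of 14 cases and tested in 9. Icos, Havcr2 and Cd226 were called higher, beside 8.31% of all tested genes. The median log2 fold change of the 9, Havcr2 included, was 1.59. Icos, the inducible costimulator, had 9, 5, 1 and 11 counts in the controls and 41, 56, 34 and 17 after injury (log2 fold change 2.35, edgeR FDR 0.0319). Havcr2, which encodes TIM-3 and is also found on myeloid cells, had 2, 1, 6 and 2 against 12, 22, 27 and 14 (log2 fold change 2.60, edgeR FDR 0.0126). Cd226 had 4, 11, 2 and 9 against 59, 37, 19 and 23 (log2 fold change 2.23, edgeR FDR 0.0361). No artery overlapped in these 3 genes, of which Havcr2 entered the test through the injured arteries alone. Without control artery 1, or injured artery 1, 2 or 4, a single gene of the list was called. Cd28 was not called at 1.82 and Tnfrsf9 not at -0.39 (edgeR FDR 0.0733 and 0.578). Pdcd1 had 2 counts in injured artery 1 and 0 elsewhere, and Cd40lg was listed at 0 in all libraries.

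Among 12 transcription factors of T cells, 9 were tested and 2 were called higher, beside 8.31% of all tested genes. The median log2 fold change of the 9, Runx3 included, was 0.76. Runx3, which acts in CD8 and natural killer cells, had 4, 2, 6 and 2 counts in the controls and 76, 94, 70 and 47 after injury (log2 fold change 4.19, edgeR FDR 0.000565), and it too entered the test through the injured arteries alone. Ikzf1, which is used across lymphoid and myeloid cells, had 29, 34, 39 and 27 against 280, 233, 244 and 179 (log2 fold change 2.71, edgeR FDR 0.000226). Of those not called, Ikzf3 had the largest log2 fold change at 1.65 and Gata3 the lowest at -1.39 (edgeR FDR 0.217 and 0.402). Gata3, which is also used by sympathetic neurons, had 443 counts in control artery 4 and at most 35 in the other controls. Tbx21 and Eomes, regulators of the type 1 and cytotoxic programs, did not enter the edgeR test. Tbx21 had 1, 2, 1 and 3 counts in the controls and 51, 29, 11 and 35 after injury, and Eomes had 0, 0, 0 and 1 against 24, 15, 10 and 23. DESeq2, which tested both, gave them an FDR of 1.68e-05 and 4.35e-05. In edgeR, 4 genes of the list were called without control artery 1, 2 or 3 or injured artery 3, and 5 without control artery 4. Each of these fits tested 11 genes of the list in place of 9, because the low-count filter then asked for fewer arteries. The numbers called are therefore not over the same genes, and Runx3 and Ikzf1 were called in each.

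Receptors for cytokines were called in all 5 tested cases of 13 listed genes, beside 8.31% of all tested genes called higher. The cytokines themselves were near 0. Il7r, the receptor for interleukin 7, had 7, 8, 13 and 17 counts in the controls and 141, 227, 170 and 222 after injury (log2 fold change 4.00, edgeR FDR 0.000615). Il2rb had 3, 6, 4 and 7 against 119, 65, 70 and 54 (log2 fold change 3.75, FDR 0.000565), and Il21r had 6, 15, 23 and 10 against 124, 143, 130 and 86 (log2 fold change 3.01, FDR 0.00220), both in edgeR's test. Il2ra had 0, 0, 1 and 2 counts against 12, 17, 16 and 10 (edgeR FDR 0.00741), and Il18r1 had 1, 4, 1 and 5 against 34, 15, 25 and 14 (edgeR FDR 0.0114). Il2ra, Il2rb and Il18r1, 3 of these 5 genes, entered the test through the injured arteries alone. Ifng, Il2, Il4, Il10, Il17a, Il21 and Tnf had at most 8 counts in any artery, too few for the test.

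Cytotoxic effector genes were tested in 6 of 9 cases and all 6 were called higher, but 5 of them entered the test through the injured arteries alone. Of all tested genes, 8.31% were called higher. The number called was 2 without control artery 3 and 3 without control artery 2 or injured artery 1, 2 or 4. Ctsw, a cathepsin of cytotoxic cells, had 0, 0, 3 and 3 counts in the controls and 88, 75, 31 and 28 after injury (log2 fold change 4.99, edgeR FDR 0.00550). The granzyme Gzmk had 0, 2, 0 and 1 against 29, 23, 15 and 22, and Gzmm had 0, 3, 1 and 7 against 84, 35, 20 and 24 (edgeR FDR 0.00467 and 0.0194). Prf1, perforin, had 0, 6, 10 and 6 counts against 61, 38, 35 and 20, and Nkg7 had 0, 0, 3 and 5 against 42, 16, 18 and 25 (edgeR FDR 0.0356 and 0.0229). The chemokine Ccl5 had 2, 1, 6 and 12 against 80, 35, 29 and 42 (edgeR FDR 0.0162). Gzma and Gzmb were at 0 in every control and had at most 3 and 16 counts after injury. These genes are shared by T cells and natural killer cells.

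**Figure D3:**
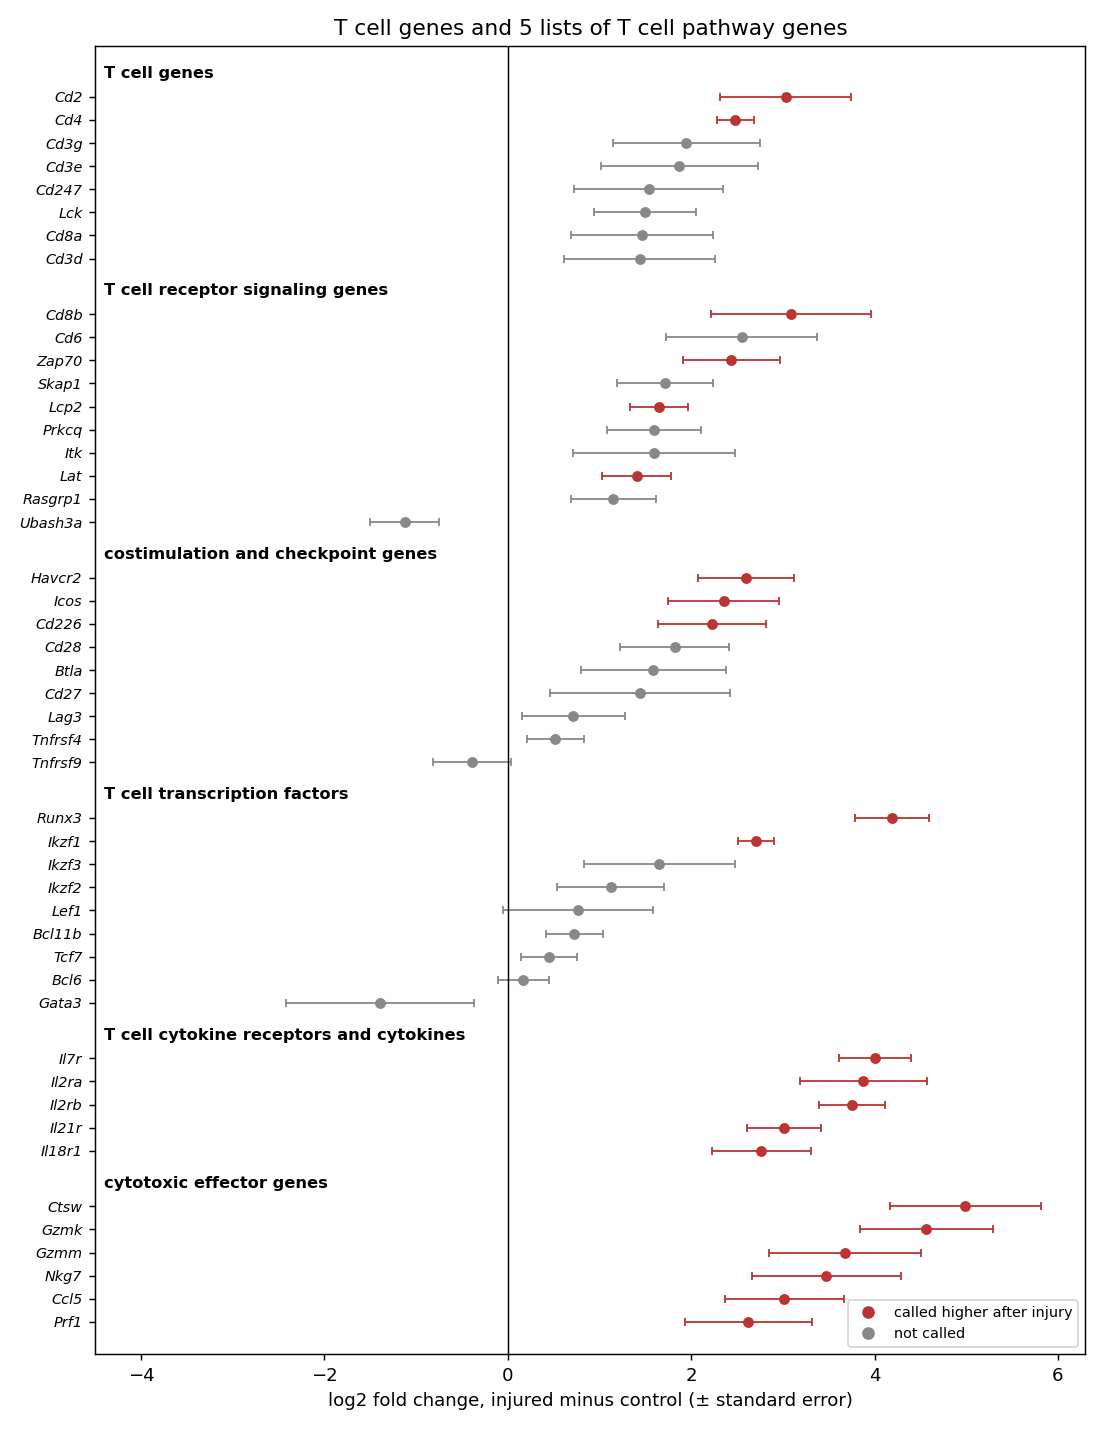
Fitted log2 fold change of injured minus control arteries (± standard error, edgeR, 4 arteries against 4) for the 8 tested genes of the set and the tested genes of the 5 lists, with genes called higher in red and others in gray. All 5 cytokine receptors and all 6 cytotoxic genes tested lie right of 2, but 3 and 5 of them passed the low-count filter through the injured arteries alone, whereas Ubash3a, Tnfrsf9 and Gata3 lie left of 0.

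Across the 5 lists, 20 of 39 tested genes were called higher, 0 lower, and 24 had no overlap between the groups, Ubash3a in the lower direction. Of the 39 tested genes, 12 passed the low-count filter through the injured arteries alone, and 11 of these were called. Such genes had to differ, without overlap, to be tested at all. Neither the number called nor the number without overlap is therefore a measure of the lists. Over all tested genes, 8.31% were called higher and 14.2% had every injured artery above every control. Other leukocyte markers moved in the same arteries. Natural killer markers, led by Klrk1, summed to 0.328 to 0.834 CPM in the controls and 7.24 to 21.2 CPM after injury, and the defining marker Ncr1 had 0, 0, 1 and 1 counts against 15, 6, 9 and 10. B cell markers, led by Cd22, summed to 0.208 to 1.32 CPM and 6.46 to 11.1 CPM, with Cd79a at 0 in all 8 libraries. The 5 pan-leukocyte markers, led by Laptm5, summed to 19.3 to 66.3 CPM and 227 to 326 CPM, and markers of lymph node stroma and follicles, led by Ccl21, to 4.97 to 14.1 CPM and 34.5 to 92.0 CPM. In that last list Ccl21 and Cxcl13 were called higher. Ccl19 was not called (log2 fold change -0.28, edgeR FDR 0.691), and the other 3 of its 6 genes had too few counts for the test. Dendritic cell markers, led by Zbtb46, summed to 16.2 to 24.8 CPM and 30.2 to 32.0 CPM. Zbtb46 itself overlapped between the groups and was not called (log2 fold change 0.18, edgeR FDR 0.435). Of the 4 tested markers, Clec9a and Ccr7 were called higher, and Ccr7 entered the test through the injured arteries alone. None of these sums overlapped between the groups. The part of these cells was not tested for any gene of the set, Cd2, Cd8a, Cd247, Cd4 and Lck among them, nor for the 5 lists. The sum of the 5 endothelial markers, led by Vwf, overlapped between the groups at 730 to 2023 CPM and 570 to 835 CPM, but its genes moved in both directions, with Vwf called lower (log2 fold change -1.65) and Cdh5 and Kdr called higher (1.06 and 2.03) by edgeR. Skeletal muscle markers, led by Acta1, overlapped in their sum at 83.5 to 252 CPM and 213 to 839 CPM, and 5 of 7 were called higher without overlap. Of these 5, however, 4 passed the low-count filter through the injured arteries alone and had to differ to be tested. Mylpf, a fast muscle myosin light chain, had 5, 0, 3 and 0 counts in the controls and 651, 365, 373 and 976 after injury. The part of muscle tissue in the results was not tested.

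**Figure D4:**
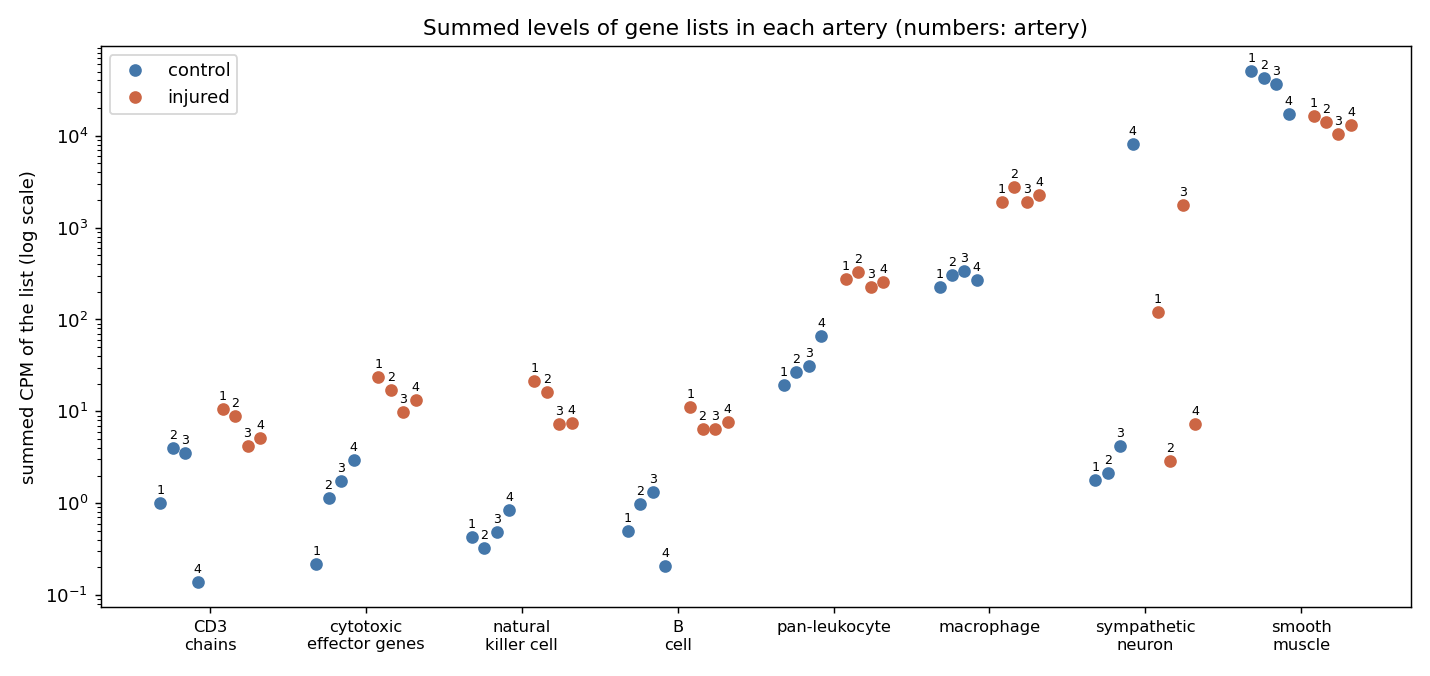
Summed CPM of the CD3 chains and 7 gene lists in each artery on a log axis, with controls in blue, injured arteries in orange and artery numbers beside the points. Control arteries 2 and 3 are close to injured arteries 3 and 4 for the CD3 chains, natural killer and B cell markers are fully separated, and neuronal markers are high in control artery 4 and injured artery 3.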

How the data were processed

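RNA of 4 injured and 4 control carotid arteries was sequenced by the authors, who deposited raw read counts per gene symbol for 37209 genes. The submitters' processing notes name HISAT2 2.0.4; the counting tool, genome build, annotation and strand setting are not given in the sources used here. Groups were taken from the labels. Counts were analysed with edgeR 4.0.16 in R 4.3.3 over the whole table: TMM factors, filterByExpr (minimum count 10; 14359 genes left) and the quasi-likelihood test without covariates, with Benjamini-Hochberg adjustment over all genes tested. CPM are counts divided by the TMM-scaled library size, a minimum of 3 counts was taken as the floor, and single genes were also tested by exact permutation of log2 CPM (prior count 2). DESeq2 1.42.0, the scaling, the low-count filter, the threshold, the replicate block and left-out arteries were alternatives. The tests were also run on simulated counts, and the outcome is not reported here. The 10 genes and all lists were chosen with earlier results of these data known. Named genes were all 10 members, every called gene of the pathway lists with the largest and smallest log2 fold change among those not called, the summed level and the top gene of each marker list, and the 5 genes most like the members. Other genes were named for their counts after their values were seen. Adgre1 and Fasl were read as Emr1 and Faslg. Promoter windows came from RefSeq on GRCr8. Some listed genes are not reported here.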

Additional observations from a re-analysis of the deposited data

Results flagged for a closer look

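Of 50 groups of 4 arteries examined, 4 held an artery whose gap to its nearest neighbor, divided by the range of the group, was above Dixon's critical value, and chance gives about 2.5. For Cd3d, control artery 2 had 1.07 CPM where the next control had 0.216 CPM, a ratio of 0.853. For Cd3e, injured artery 1 had 2.57 CPM where the next injured artery had 1.57 CPM, a ratio of 0.892. The summed level of sympathetic neuron markers was 8135 CPM in control artery 4 against 4.16 CPM in the next control, a ratio of 1.0, and 1746 CPM in injured artery 3 against 119 CPM in the next injured artery, a ratio of 0.933.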

How the results depend on the processing

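The log2 fold change of the 8 tested T cell genes was positive in all 122 pairings of a gene with an alternative setting, which reuse the same libraries. Cd4 was called in all of its 16, at 2.37 to 2.66. With DESeq2, 8 signaling, 6 costimulation and 4 transcription factor genes were called higher, in place of 4, 3 and 2, and 1 signaling gene, Ubash3a, was called lower. Calls higher over all genes also rose, to 1601 of 16652 tested with DESeq2 from 1193 of 14359 as reported. Without a low-count filter, 1 costimulation and 4 transcription factor genes were called. With at least 10 counts in every library, the calls were 1 T cell gene of 2 tested, 2 signaling of 3, 0 costimulation of 1 and 1 transcription factor of 5. No cytokine receptor or cytotoxic gene was left to test under that filter. Tested against a fold change of 2, the calls were 1 T cell gene, 0 signaling, 0 costimulation and 2 cytotoxic genes. Without control artery 4 and injured artery 3, chosen after seeing the data, 8 signaling, 5 costimulation and 5 transcription factor genes were called. That fit also called more genes higher across the whole table, 1800 of 14366 tested. Leaving out each artery in turn gave 1 to 2 T cell genes, 2 to 6 signaling, 1 to 4 costimulation, 2 to 5 transcription factor and 2 to 6 cytotoxic genes, and always 5 cytokine receptors. Of those receptors, Il2ra, Il2rb and Il18r1 entered the reported test through the injured arteries alone, so the steady number is no measure of robustness. Over all genes, these fits called 945 (without injured artery 4) to 1817 (without control artery 4) higher. The genes tested changed in these fits, to 10 to 12 signaling, 9 to 10 costimulation and 9 to 11 transcription factor genes. Arteries with the same replicate number share only a number in the labels, and their deviations from the group means correlated at 0.301, 0.450, -0.520 and -0.416 for replicates 1 to 4. With the replicate block, 1 T cell gene, 1 signaling and 2 cytotoxic genes were called, 1187 genes were called overall in place of 1562, and Cd2 was not called (FDR 0.0981 in edgeR). Without control artery 4, 2398 genes were called overall. Scaling by library totals alone moved the median log2 fold change of all genes by 0.17 and changed no direction among the T cell genes. The share of calls that were higher was 85.1% there and 76.4% as reported. What caused these differences was not tested. Ctla4 had at most 7 counts in any artery, too few for edgeR's test at this depth.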

Other observations

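Among 14266 tested genes on none of the lists, those whose log2 CPM followed the mean standardized level of the 8 tested T cell genes most closely over the 8 arteries were Rab3il1 (Pearson's r 0.988), Alox5 (0.977), Nhsl1 (0.976), Pla2g4b (0.974) and Pgap2 (0.969). These values describe 8 libraries in 2 groups and were the highest of many, so no p is given. Alox5, the 5-lipoxygenase of leukotriene synthesis, had 43, 66, 88 and 44 counts in the controls and 167, 139, 120 and 124 after injury and was called higher by edgeR (FDR 0.0403, log2 fold change 1.06).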
